A study of Mus musculus and Callithrix jacchus with 22 samples.

Results

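The adult marmoset cortex was profiled by single-cell ATAC-seq at 7 and 8 years of age, and the cells of the 2 libraries labelled Y7 were set beside those of the 3 libraries labelled Y8. Every adult marmoset cell in the authors' cell table was included, which gave 7512 cells (2836 at Y7 and 4676 at Y8) of 15919 marmoset cells and of 35064 cells in the whole series, and 5 of its 22 libraries. The series compares chromatin accessibility in the cortex of mice and marmosets from birth to adulthood. The adult marmosets were wild type, with no treatment named, and the labels give somatosensory cortex, while the study's methods name somatosensory and motor cortex for these libraries. Tissue was dissociated with papain, live cells were sorted with DAPI and a DNA dye without selecting a cell type, and libraries were made with the 10x Chromium single-cell ATAC kit. The sources used here do not say that the libraries of 1 age came from separate animals, so age, animal and preparation cannot be told apart, and the spread between libraries may be technical. With 2 libraries against 3, an exact two-sided permutation test cannot go below p = 0.1, so the comparison of the ages is given as a description without tests.

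In ATAC-seq, a transposase cuts open chromatin and the resulting fragments mark accessible DNA, so the reads and peaks of a cell count its sampled open sites. Oligodendrocytes, the myelin-forming cells of the central nervous system, arise from oligodendrocyte precursor cells (OPC), which keep dividing in the adult cortex, and pass through committed precursors (COP), newly formed (NFOL) and myelin-forming (MFOL) oligodendrocytes to mature oligodendrocytes (MOL), which maintain the sheath. The neurons of the cortex are excitatory pyramidal and layer IV cells, which release glutamate, and inhibitory interneurons, of which the somatostatin (Sst) class contacts dendrites and the Vip class contacts mainly other interneurons.

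The authors named 11 cell types, each a single cluster that held cells of both ages and bore a joint prefix for them, Y78. No adult cell in the deposited cell table lacked a name. The study's methods describe removal of small and outlying clusters, so cells removed that way could not be counted. Excitatory neurons of the cluster ExNeuron, layer IV neurons and corticothalamic neurons (CthPN) are grouped below as pyramidal neurons. The study's text lists callosal, subcerebral and corticothalamic neurons as pyramidal, so adding ExNeuron and layer IV cells was a choice made here. The deposited cell table holds reads and peaks per cell but no gene values, so the type names were not checked against marker genes here. The libraries held 1627 and 1209 cells at Y7 and 1570, 1643 and 1463 cells at Y8, with 5139726 to 7213483 reads in total. No library stood apart from the others of its age as far as the libraries of different ages did. The distance between libraries, the summed absolute difference of their type shares divided so that identical libraries score 0 and fully different ones 100, was 8.79 percentage points between the Y7 libraries and 4.04 to 6.28 among the Y8 libraries, against 39.8 to 48.8 over the 6 pairs of different age. The newborn marmoset libraries, which share 1 label, lay 3.57 to 22.8 points apart and fell into 2 sets. Replicates 1 and 2 lay 3.57 points apart and replicates 3 to 5 lay 3.85 to 6.96 apart. Pairs across these sets lay 19.3 to 22.8 points apart, so libraries of 1 label can differ by that much. By an asymptotic chi-square test of the type counts, a check on the counting of cells in single libraries and not on the ages, Y8 replicate 3 could not be distinguished from replicate 2 (p = 0.258) or from replicate 1 (p = 0.100), whereas Y8 replicates 1 and 2 differed (p = 0.00457), as did the Y7 replicates (p = 1.89e-05). The adult libraries shared only 1 to 5 cell barcodes with one another, so each was counted as a library of its own.

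The makeup of the recovered cells differed between the ages in every type. At Y8, neurons and mature oligodendrocytes took smaller shares of all cells, and astrocytes, precursors and immature oligodendrocytes took larger ones. For all 11 of the 11 types (100%), the share of all cells did not overlap between the Y7 and Y8 libraries. Mature oligodendrocytes formed 52.2% and 48.1% of the Y7 libraries and 20.8%, 22.3% and 24.1% of the Y8 libraries. The largest type at Y7 was therefore the MOL cluster in both libraries, whereas the largest at Y8 was the MFOL cluster in all 3. Myelin-forming oligodendrocytes formed 7.44% and 11.7% of the Y7 libraries and 37.4%, 35.5% and 33.6% of the Y8 libraries, a mean of 9.59% ± 3.05 (SD, n = 2) against 35.5% ± 1.91 (SD, n = 3). The oligodendrocyte lineage as a whole, from OPC to MOL, took 71.2% ± 0.87 (SD, n = 2) of cells at Y7 and 84.2% ± 1.88 (SD, n = 3) at Y8. All shares are of cells that survived dissociation, sorting and filtering, and they have a fixed total, so a lower share of 1 type raises those of the others.

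**Figure D1:**
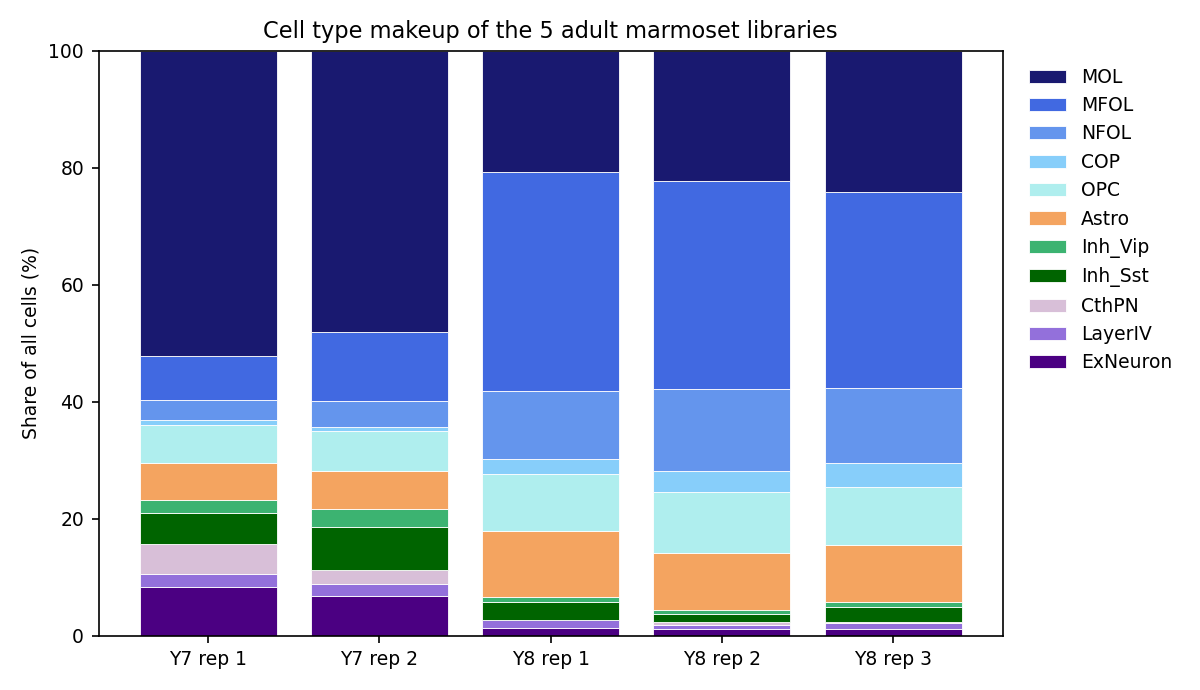
Share of all cells (%, vertical axis) taken by each of the 11 cell types in the 2 Y7 and 3 Y8 libraries, as stacked bars that start at 0. Mature oligodendrocytes fill 48.1% to 52.2% of the Y7 bars and 20.8% to 24.1% of the Y8 bars, and neurons 21.6% to 23.2% against 4.44% to 6.62%.

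Within the oligodendrocyte lineage, which removes neurons and astrocytes from the total, each of the 5 stages also took shares that did not overlap between the ages (100%). The end stage was lower at Y8 and every earlier stage was higher. Mature oligodendrocytes made up 74.0% of the lineage in Y7 replicate 1 (95% Wilson interval 71.4 to 76.5) and 67.1% in replicate 2 (63.9 to 70.1). At Y8 they made up 25.3% (23.0 to 27.7), 25.9% (23.7 to 28.3) and 28.6% (26.1 to 31.1). The mean difference, Y8 minus Y7, was -44.0 points, the gap between the nearest libraries of the 2 ages was 38.5 points, and the Y7 libraries themselves differed by more than their intervals. Intervals here and below cover the counting of cells only.

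Over cells of all depths, the MFOL cluster, the stage just before MOL, accounted for most of the opposite difference. It held 10.5% and 16.4% of the lineage at Y7 and 45.5%, 41.3% and 39.7% at Y8, which is 3.14 times the Y7 mean. The 95% intervals of the Y7 libraries did not touch, ending at 12.5 and starting at 14.1, yet both values were well below the lowest Y8 library. Newly formed oligodendrocytes held 4.88% and 6.11% at Y7 and 14.2%, 16.4% and 15.1% at Y8, with a mean 9.76 points higher. Together the intermediate stages NFOL and MFOL came to 18.9% ± 4.98 (SD, n = 2) and 57.4% ± 2.43 (SD, n = 3) of the lineage. The place of MFOL depended on depth. Its mean difference was 21.7 points at 1000 to 1999 reads and 38.0 at 2000 to 3999, the largest of the stages before MOL. At 4000 to 7999 reads it was 12.7 points, against 18.2 for NFOL and 16.7 for OPC. At 8000 reads and over MFOL overlapped between the ages, and NFOL was 38.6 points higher at Y8.

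Among the precursors, committed cells differed in proportion more than OPCs. COPs were 14 and 8 cells at Y7 and 40, 58 and 59 at Y8, or 1.22% and 0.922% of the lineage against 3.10%, 4.11% and 4.77%. OPCs, the dividing pool, were 9.32% and 9.56% at Y7 and 11.9%, 12.2% and 11.8% at Y8, a mean 2.54 points higher with a gap of 2.25 points between the groups. The OPC difference was small beside those of the later stages, and the Wilson intervals of the ages overlapped, for example 7.78 to 11.7 in Y7 replicate 2 and 10.1 to 13.7 in Y8 replicate 3. It was 5.17 points among cells with at least 2000 reads, but its direction depended on depth. At 4000 to 7999 reads OPCs held 13.7% and 20.3% of the lineage at Y7 and 35.4%, 35.3% and 30.3% at Y8, all higher, and at 8000 reads and over 43.6% and 35.1% against 21.3%, 16.7% and 27.0%, all lower. The order of stages by size was MOL, MFOL, OPC, NFOL and COP in both Y7 libraries and MFOL, MOL, NFOL, OPC and COP in all 3 Y8 libraries.

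**Figure D2:**
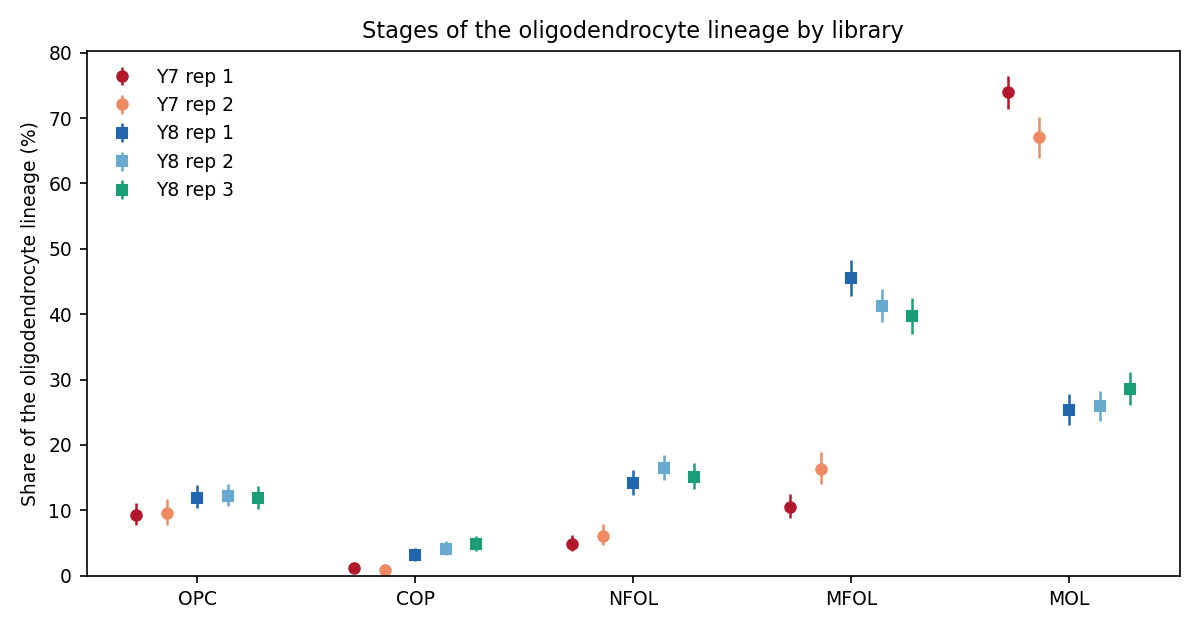
Share of the oligodendrocyte lineage (%, vertical axis) at each stage, with 1 point per library (circles Y7, squares Y8) and bars for the 95% Wilson interval. The Y8 points lie above the Y7 points for OPC, COP, NFOL and MFOL and below them for MOL, where the nearest libraries are 38.5 points apart.

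Ratios between stages do not depend on the other cell types in a library. For every 100 MOL there were 14.2 and 24.4 MFOL at Y7 and 180, 159 and 139 at Y8, and the mean ratio was 8.26 times higher at Y8. For every 100 OPC there were 748 MOL on average at Y7 and 222 at Y8, and 142 MFOL against 352. NFOL per 100 OPC numbered 52.3 and 63.9 at Y7 and 119, 135 and 128 at Y8, and COP per 100 OPC 13.1 and 9.64 against 26.0, 33.7 and 40.4. None of these ratios overlapped between the ages. The ratio of MFOL to NFOL, neighbouring stages, did overlap, at 216 and 268 MFOL per 100 NFOL at Y7 and 321, 251 and 263 at Y8. With MOL left out of the total, OPCs were a smaller part of the lineage at Y8, at 16.3% ± 0.30 (SD, n = 3) against 32.5% ± 4.87 (SD, n = 2), MFOL was higher, at 57.4% ± 3.00 against 45.1% ± 6.40, and COP overlapped.

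Astrocytes, the glial cells that support synapses and contact blood vessels, took larger shares at Y8. They formed 6.21% and 6.62% of cells at Y7 and 11.2%, 9.68% and 9.71% at Y8, a mean 3.79 points higher. Among non-neuronal cells the means were 8.26% ± 0.25 (SD, n = 2) and 10.8% ± 1.04 (SD, n = 3), and the groups still did not overlap. Astrocytes and OPCs kept a similar ratio at both ages. Astrocytes per 100 OPC numbered 94.4 and 96.4 at Y7 and 114, 92.4 and 97.3 at Y8, so the Y7 values lay inside the Y8 range. In the 5 newborn libraries, where neurons were 71.6% ± 2.51 (SD, n = 5) of cells and OPC and COP were the lineage stages named, this ratio was 139 ± 31.8 (SD, n = 5).

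Neurons were the smaller part of the Y8 libraries. They formed 23.2% (95% Wilson interval 21.2 to 25.3) and 21.6% (19.4 to 24.0) of cells at Y7, and 6.62% (5.50 to 7.96), 4.44% (3.55 to 5.55) and 5.81% (4.72 to 7.13) at Y8. The Y8 mean was 0.25 times the Y7 mean, and the nearest libraries of the 2 ages lay 15.0 points apart. Against astrocytes, a type from another lineage, the number of neurons per 100 was 350 ± 34.0 (SD, n = 2) at Y7 and 55.0 ± 7.84 (SD, n = 3) at Y8.

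Pyramidal neurons were lower at Y8 in a greater proportion than interneurons. Pyramidal neurons were 15.7% and 11.2% of cells at Y7 and 2.74%, 2.25% and 2.32% at Y8. Interneurons were 7.50% and 10.3% at Y7 and 3.89%, 2.19% and 3.49% at Y8. The Y8 mean was 0.18 times the Y7 mean for pyramidal neurons and 0.36 times for interneurons. As a part of all neurons, interneurons made up 32.3% (27.8 to 37.2) and 47.9% (41.9 to 53.9) at Y7 and 58.7% (49.1 to 67.7), 49.3% (38.2 to 60.5) and 60.0% (49.4 to 69.8) at Y8. The groups lay only 1.42 points apart and their intervals overlapped. The mean difference of 15.9 points was 8.10 points without Y7 replicate 1, and the groups overlapped when cells were limited to at least 2000 reads (12.4 points).

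Of the neuron types, 3 of 5 (60%) had shares of neurons that did not overlap between the ages. Layer IV neurons, the excitatory cells that receive thalamic input, held 9.79% and 9.58% of neurons at Y7 and 19.2%, 16.4% and 18.8% at Y8, a mean 8.48 points higher. All 3 Y8 libraries lay above both Y7 libraries, from 12 to 20 cells each, though the intervals of the ages overlapped. As a part of pyramidal neurons they were 14.5% and 18.4% at Y7 and 46.5%, 32.4% and 47.1% at Y8. Layer IV neurons were still a smaller share of all cells at Y8, at 1.03% ± 0.28 (SD, n = 3) against 2.17% ± 0.15 (SD, n = 2), and there the groups overlapped once cells were limited to at least 2817.5 reads, the median of the adult cells.

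Corticothalamic neurons, which send axons from deep layers to the thalamus, were 84 and 30 cells at Y7 and 2, 7 and 2 cells at Y8. Their share of neurons was 22.2% and 11.5% at Y7 and 1.92% (95% Wilson interval 0.529 to 6.74), 9.59% (4.72 to 18.5) and 2.35% (0.648 to 8.18) at Y8. The lowest Y7 and highest Y8 library were 1.91 points apart with overlapping intervals. Without Y7 replicate 1 the mean difference was -6.87 points among neurons, in place of -12.2, and -2.25 points among all cells, in place of -3.59. The ExNeuron cluster held 35.7% and 31.0% of neurons at Y7 and 20.2%, 24.7% and 18.8% at Y8, with no overlap of the values but of their intervals.

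Sst and Vip interneurons overlapped as shares of neurons. Sst cells held 22.5% and 33.7% at Y7 and 46.2%, 31.5% and 43.5% at Y8, and Vip cells 9.79% and 14.2% against 12.5%, 17.8% and 16.5%. Among interneurons alone, Sst cells were 69.7% and 70.4% at Y7 and 78.7%, 63.9% and 72.5% at Y8. The Y7 values lay inside the Y8 range. At 36 to 61 interneurons per Y8 library, the Wilson interval reached 10.1 to 15.0 points on either side of a library's share. A small difference could be missed at these counts.

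**Figure D3:**
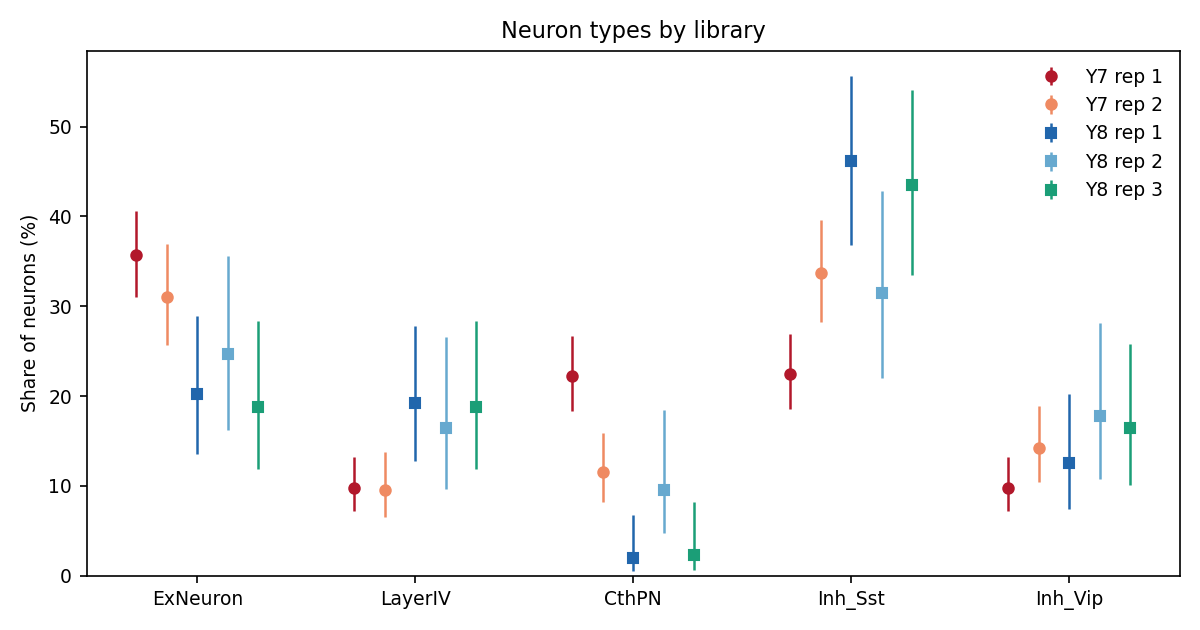
Share of neurons (%, vertical axis) in each neuron type, with 1 point per library (circles Y7, squares Y8) and bars for the 95% Wilson interval. LayerIV lies higher at Y8 (16.4% to 19.2% against 9.58% and 9.79%), ExNeuron and CthPN lower, and the 2 interneuron types overlap.

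Reads per cell were compared next, since they set how many open sites a cell can show. Over all cells the median was 3274 and 3338 reads at Y7 and 2557.5, 2565 and 2618 at Y8. Each Y8 library was lower, and the mean difference was -726 reads. The medians of peaks per cell were 1739 and 1731 at Y7 and 1337, 1363 and 1393 at Y8. Neurons, which as a class held more reads per cell than glia, gave 39.2% and 35.6% of all reads at Y7 and 14.8%, 10.2% and 11.4% at Y8, and the part of this difference in makeup was not tested. With each of the 10 types given the same weight the mean difference was 100.3 reads, a mean over types that differed both ways, from -4047 reads in Vip cells to 3646 reads in layer IV cells. The authors sampled the libraries to a similar number of fragments per cell, so absolute reads also carry that step.

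Within types, the median reads per cell did not overlap between the ages in 7 of the 10 types that had at least 10 cells in a library of each age (70%), and the direction differed by type. Mature oligodendrocytes had 3101.5 and 3206 reads at Y7 and 2475, 2249 and 2471 at Y8, a mean difference of -755 reads, which was -387 reads among cells with at least 2000 reads. The whole distribution lay lower, since 20.1% and 17.7% of MOL cells had under 2000 reads at Y7 and 32.5%, 40.2% and 36.0% at Y8. MFOL cells had 1852 and 2103 reads at Y7 and 2041, 2195 and 2287 at Y8, with overlap. The ratio of the MOL median to the MFOL median in the same library was 1.67 and 1.52 at Y7 and 1.21, 1.02 and 1.08 at Y8. A common scaling of a library would leave this ratio as it is only if no cell crossed the authors' limits on reads.

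Astrocytes had 2991 and 2957.5 reads at Y7 and 2546.5, 2536 and 2608 at Y8, and OPCs 4660 and 5094 against 4590, 4459.5 and 4455.5. Neither overlapped in medians, but both did in mean reads per cell. COP and NFOL overlapped in reads, though COP had a Y7 median in 1 library only, from 14 cells. NFOL was the stage with the widest Y7 spread, at 1816.5 and 3480 reads against 3412 to 3644 at Y8.

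Excitatory and inhibitory neurons differed in opposite directions. ExNeuron cells had medians of 4900 and 4302 reads at Y7 and 5857, 9942.5 and 8450 at Y8, and layer IV cells 5320 and 5877 against 10015, 10024 and 7694. The Y8 medians rest on 12 to 21 cells each and were all higher than the Y7 medians. In layer IV cells with at least 2000 reads, the difference was 509 reads with overlap, in place of 3646. As mean reads per cell the differences were 2120 reads in ExNeuron cells, in place of 3482, and 1994 reads in layer IV cells. Sst cells had 8871 and 6617.5 reads at Y7 and 6119.5, 6163 and 5960 at Y8, and Vip cells 10335 and 10125 against 6092, 7420 and 5036.5, so every Y8 library was lower. The Sst difference of -1663 reads was -537 reads without Y7 replicate 1 and -2790 reads without Y7 replicate 2, and as mean reads per cell the Sst groups overlapped, with a difference of -1323 reads. All pyramidal cells had 0.658 and 0.591 times the median reads of all interneurons in the same library at Y7, and 1.57, 1.53 and 1.31 times at Y8. All neurons together overlapped, at 7919.5 and 6419 reads against 7249.5, 7578 and 6604.

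**Figure D4:**
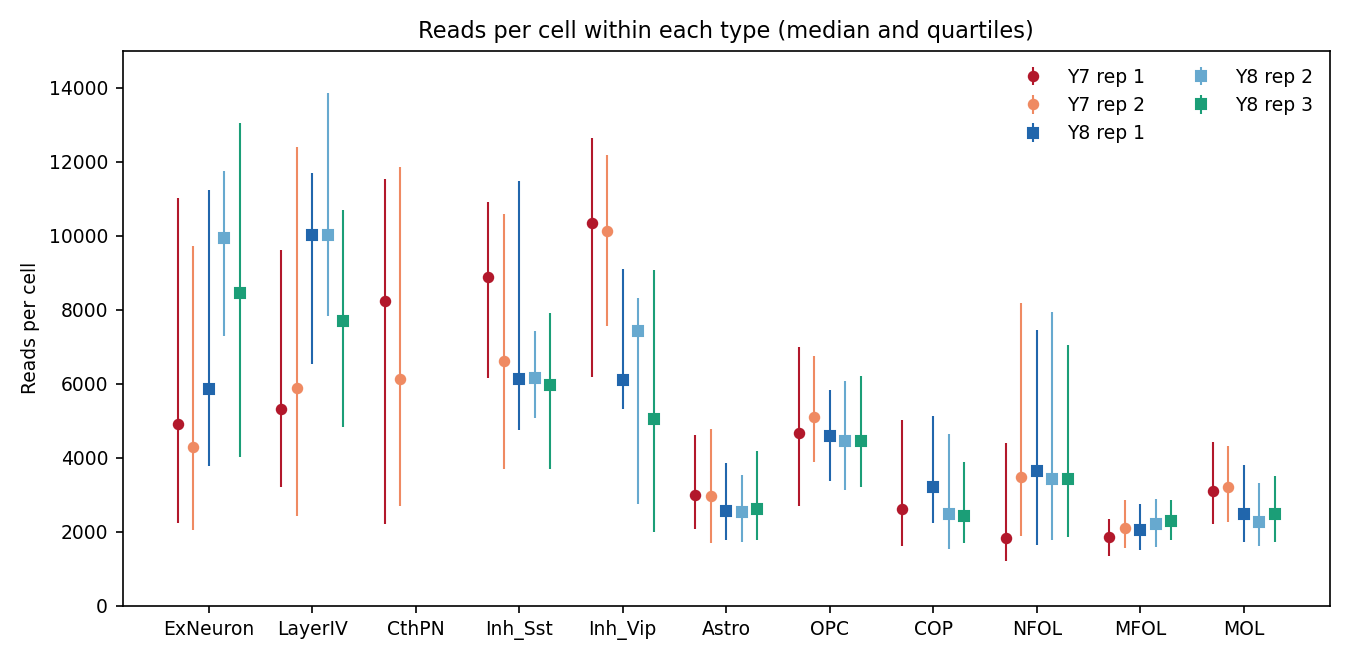
Reads per cell (vertical axis) by cell type and library, with the median as a point (circles Y7, squares Y8) and the quartiles as bars, for types with at least 10 cells in the library. ExNeuron and LayerIV medians are higher at Y8, the Sst, Vip and MOL medians are lower, and MFOL medians overlap.

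Peaks per cell followed reads. Their medians did not overlap in 8 of the 10 types (80%), the same 7 types as for reads and NFOL. MOL cells had 1636.5 and 1660 peaks at Y7 and 1303.5, 1198 and 1328 at Y8, and ExNeuron cells 2877 and 2406 against 3324, 5314.5 and 4406. NFOL cells had 1030 and 1927 peaks at Y7 and 2094, 2006.5 and 2128 at Y8. This NFOL difference was 149 peaks without Y7 replicate 1 and 1046 peaks without Y7 replicate 2, and the groups overlapped in mean peaks per cell. Peaks per 100 reads, which scales peaks by reads, did not overlap in 2 of the 10 types (20%). Of the 10 ways to place 2 libraries against 3, 2 keep the groups apart, so random grouping would give a share of this size. ExNeuron cells had medians of 56.4 and 55.9 peaks per 100 reads at Y7 and 53.5, 53.0 and 52.4 at Y8, and layer IV cells 56.1 and 56.0 against 52.1, 52.6 and 54.3. These are the types with more reads at Y8, and the measure was not free of depth. In ExNeuron cells of Y7 replicate 1 it was 57.4 at 1000 to 1999 reads and 53.4 at 8000 reads and over. In the libraries as a whole, peaks per 100 reads were 52.4 to 53.3 at both ages.

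Peaks per 100 reads were also compared between cells of similar depth, in windows of 1000 to 1999, 2000 to 3999, 4000 to 7999 and 8000 to 15000 reads. Of 14 pairs of a type and a window with at least 10 cells in all 5 libraries, 3 did not overlap, each lower at Y8. They were MOL and NFOL at 1000 to 1999 reads, with means of 54.9 against 54.0 and 56.9 against 55.7, and Sst at 4000 to 7999 reads, with 53.5 against 52.1. Random grouping of the libraries would keep about as many of the 14 pairs apart, so the 3 pairs are given as a description only. ExNeuron and layer IV cells were too few at Y8 to be among the 14 pairs. At 8000 reads and over, the only window with a Y8 value, ExNeuron cells had 53.4 in both Y7 libraries and 52.7 in 1 Y8 library, and layer IV cells 52.8 and 52.5 against 51.8 in 1 Y8 library. In the lowest window NFOL cells had 55.5 to 57.0 peaks per 100 reads over the 5 libraries, and MFOL cells 53.7 to 54.1, so these neighbouring stages differed more than the ages did.

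The shares were also compared between cells of similar depth. MOL cells held 58.0% and 55.1% of the lineage at Y7 in the window of 1000 to 1999 reads, against 22.3%, 29.9% and 32.2% at Y8. At 2000 to 3999 reads they held 81.4% and 72.3% against 28.7%, 26.5% and 29.0%, and at 4000 to 7999 reads 81.8% and 73.7% against 28.7%, 23.7% and 26.1%. The Y7 libraries lay above all Y8 libraries in each window. At 8000 reads and over, where the lineage numbered 37 to 78 cells per library, the shares were 38.5% and 27.0% against 6.56%, 3.85% and 11.1%, and NFOL was the largest stage in the Y8 libraries, at 65.6%, 74.4% and 55.6%.

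Neurons were 14.9% and 16.6% of the cells with 1000 to 1999 reads at Y7 and 1.68%, 1.09% and 3.52% at Y8. At 8000 reads and over they were 78.6% and 73.9% against 39.3%, 27.9% and 27.8%. The groups did not overlap in any of the 4 windows. The authors removed cells above upper limits on reads and peaks, so neurons beyond those limits were counted in no window and no median. The interneuron share of neurons did not overlap in the 3 windows under 8000 reads, but the intervals of the ages overlapped in each of them. The lowest 2 windows held only 6 to 16 neurons per Y8 library. At 1000 to 1999 reads the interneurons were 4 of 9, 3 of 6 and 11 of 16 neurons at Y8. The values overlapped at 8000 reads and over, at 40.1% and 56.6% against 47.9%, 26.5% and 46.7%.

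**Figure D5:**
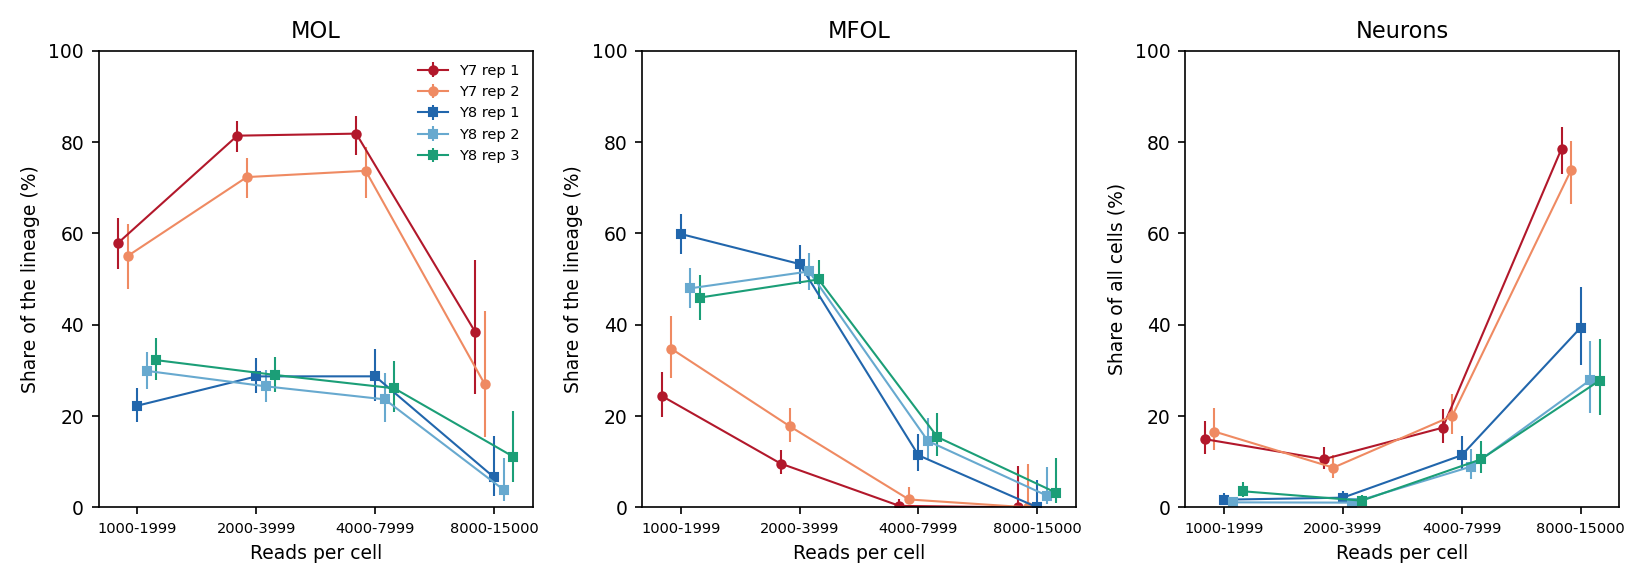
Shares (%, vertical axis) of MOL and MFOL in the oligodendrocyte lineage and of neurons in all cells, by window of reads per cell and library (circles Y7, squares Y8), with bars for the 95% Wilson interval. MOL and neurons lie lower at Y8 in all 4 windows, for example 26.5% to 29.0% against 72.3% and 81.4% of the lineage for MOL at 2000 to 3999 reads.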

How the data were processed

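The authors dissociated and sorted cortical cells, made 10x Chromium single-cell ATAC libraries, aligned marmoset reads with Bowtie2 to CalJac3, removed mitochondrial, unpaired, low-quality and duplicate reads, sampled libraries to a similar fragment depth per cell and called peaks with MACS2 in Scasat. The submitters' processing notes name mm10 and MACS2 for all samples, and the coordinates were not used here. Cells outside limits on reads and peaks and small or outlying clusters were removed by the authors, who named clusters from gene activity scores. The sources used here do not give the treatment of doublets.

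The deposited cell table gives whole-number counts of reads and of peaks per cell, with the library, cluster and type. The adult cells held 1000 to 14990 reads and 482 to 7975 peaks. Cells were grouped by the table's library name, and shares were computed per library with 95% Wilson intervals. Mean ± SD is over libraries, and a type with under 10 cells in a library got no median. Calculations used Python 3.11.15, pandas 2.3.3, numpy 2.4.6 and scipy 1.17.1 and were tested on simulated data. The alternatives were limits on reads and peaks, means per cell, other totals, equal weight per type, leaving out each library, averaging agreeing libraries and a replicate block. Ratios of median reads within a library were added after the data were seen. The comparison and type groups were chosen with earlier results of these data known. Authors' comparisons were not used, and no gene is named because the table holds no gene values.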

Additional observations from a re-analysis of the deposited data

Results flagged for a closer look

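Median reads per cell differed in opposite directions in the 2 classes of neurons. In pyramidal neurons the mean of the library medians was 3677 reads higher at Y8, with 6015 and 4873 reads at Y7 and 9589, 10069 and 7704.5 at Y8. In interneurons it differed by -2509 reads, with 9139.5 and 8248 reads at Y7 and 6092, 6596 and 5867 at Y8. Every Y8 library lay above both Y7 libraries in the first class and below both in the second, and the difference between the classes was not tested. The Y8 libraries held 34 to 43 pyramidal neurons and 36 to 61 interneurons each. Upper quartiles of pyramidal reads lay closer, at 11297.5 and 11323.8 against 12038, 12798 and 12284, and those of interneurons overlapped. Corticothalamic cells were 32.8% and 22.1% of pyramidal neurons at Y7 and 4.65%, 18.9% and 5.88% at Y8, where they had no median. Among cells with at least 2000 reads the layer IV groups overlapped, as did the Sst groups in mean reads.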

How the results depend on the processing

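All 72 alternatives of the shares that answer a comparison kept their direction, as did 419 of 422 for single types. For shares with groups that did not overlap, most of these alternatives could not reverse. Leaving out, pooling, averaging or pairing libraries keeps the direction then, and naming types by cluster changes nothing. Only the limits on reads and peaks could reverse such a share. The mature oligodendrocyte share of the lineage, -44.0 points as reported, was -49.1 points with at least 2000 reads, -50.8 above the median reads and -51.3 above the median peaks of adult cells. The same limits gave 8.45, 12.9 and 12.6 points for the precursor share (5.46 as reported). The interneuron share of neurons was 7.82 points above the median reads (15.9), with overlapping groups, and the neuron share was -18.1 points above the median peaks (-16.8). The differences of median reads (-726) and peaks (-371) were -668 and -335 with at least 2000 reads, -886 and -446 as means per cell, and reversed to 100.3 and 57.6 with each type given the same weight. Leaving out each library gave -17.6 to -16.0 points for neurons, 3.28 to 4.05 for astrocytes, -47.5 to -40.5 for mature oligodendrocytes, 5.16 to 5.93 for precursors, 8.10 to 23.7 for interneurons, 23.1 to 30.4 for layer IV of pyramidal neurons, -758 to -694 reads and -385 to -357 peaks. The labels do not pair the replicate numbers. Same-numbered libraries did not deviate together from the means of their ages, with r = -0.690 and -0.0595 over the 11 types. The 2 Y7 libraries deviate as mirror images, so these r values are not independent. The replicate block gave -16.9 points for neurons, -44.9 for mature oligodendrocytes, 13.9 for interneurons and -745 reads. As means per cell, 5 of 10 types did not overlap in reads and 5 of 10 in peaks. The causes were not tested. Counts of 73 to 104 neurons per Y8 library limit neuron types most.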
